A study of Mus musculus with 9 samples.

Results

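Livers of mice that received NFE2L2 T80K (MODEL2) were compared with livers of mice that received NFE2L2 G31A (MODEL1), across all genes counted by RNA sequencing. The libraries were chosen by their group label, 3 per model, which makes 6 of the 9 libraries of the series, and the other 3, labelled CTRL, are shown as the background. All mice were male, of the FVB strain and on a normal diet. MODEL1 mice carried NFE2L2 G31A and CTNNB1 T41A and were all 18 weeks old. MODEL2 mice carried NFE2L2 T80K and CTNNB1 T41A and were 19, 20 and 22 weeks old. In both models 20 µg of each plasmid in 2 ml of saline was injected into the tail vein under pressure, with Sleeping Beauty transposase, an enzyme that inserts the plasmid's cargo into the genome of the hepatocytes it reaches. The CTRL mice were 13, 13 and 17 weeks old; the series text describes control mice given wild-type NFE2L2 with CTNNB1 T41A, but the labels of these 3 libraries do not give their treatment. The series text states that both combinations gave liver cancer, sooner with G31A, and the labels say neither how much of each liver piece was tumour nor how long after injection it was taken.

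NFE2L2 encodes NRF2, a transcription factor that KEAP1 holds at a low level by handing it to the CUL3 ubiquitin ligase. NRF2 binds KEAP1 through a low-affinity and a high-affinity motif; G31A alters the first and T80K the second, and either change lets NRF2 escape and switch on genes of glutathione synthesis, conjugation, export and iron storage. CTNNB1 encodes beta-catenin, and T41A removes a phosphorylation site that marks it for degradation; in the liver beta-catenin maintains the programme of hepatocytes around the central vein, such as glutamine synthetase, and holds back that of hepatocytes around the portal vein, such as the urea cycle.

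Total counts per library were 219504 to 325177 in MODEL1 and 241205 to 288547 in MODEL2, so that 3 counts correspond to 8.78 to 12.1 CPM (read counts scaled to a common library size) in the models. Albumin (Alb), among the most abundant hepatocyte messages, held only 94 to 187 counts in a model library. The deposited labels do not say whether reads were assigned by strand, and symbols that share exon bases with a gene on the opposite strand held 64.6 to 71.9% of the counts in MODEL1 and 76.6 to 78.4% in MODEL2, ranges that do not overlap. Gm30505, which lies opposite the plasma protein gene Ahsg, held 33083 counts in MODEL1 and 51416 in MODEL2, against 107 and 83 for Ahsg itself. Reads of such pairs cannot be told apart here, and a gene given with a fold change is therefore given with an opposite-strand exon partner where it has one. Had the reads been assigned to the strand opposite their transcripts, a symbol's value would hold RNA from its other strand, also for genes with no partner; this was not tested, and every gene value here is that of the symbol as deposited. The ribosomal RNA symbol Rn45s took 2.68 to 13.4% of the counts in MODEL1 and 2.20 to 4.11% in MODEL2. CTRL replicate 1 and MODEL1 replicates 1 and 3 exceeded 8% and are called rRNA-rich below. A fit without them keeps only replicate 2 of MODEL1, so the MODEL1 level there rests on that library alone. A call kept or lost in that fit therefore cannot show whether rRNA content mattered. An age term below is age in weeks as a covariate of the fit.

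The injected genes themselves were too thinly counted to be tested. Nfe2l2 (chr2:75675513-75704641, reverse strand) held 8, 14 and 3 counts in the MODEL1 libraries and 2, 3 and 2 in the MODEL2 libraries, against 7, 4 and 4 in CTRL. The scaled count ratio of MODEL2 to MODEL1 was 0.310 (exact 95% counting interval 0.113 to 0.737, which covers counting error only), and the highest MODEL2 count equalled the lowest MODEL1 count. Ctnnb1 (exon partner Ulk4) held 23 counts in MODEL1 and 16 in MODEL2, a ratio of 0.770 (0.38 to 1.52). Keap1, the sensor that captures NRF2 (exon partner Gm16754), held 9 counts in each model, a ratio of 1.11 (0.389 to 3.15), and Cul3 held 8 and 10, a ratio of 1.38 (0.492 to 4.03). The intervals of Ctnnb1, Keap1 and Cul3 include 1. The labels do not say whether the plasmids carry mouse or human sequence, so these symbols do not show how much plasmid transcript was present.

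Of 2639 genes tested, 192 differed between the models at an adjusted p under 0.05 (7.28%): 102 were higher in MODEL2 (3.87%) and 90 were lower (3.41%). Values in parentheses after a fold change ± SE are adjusted p-values. The change was at least 2-fold for 78 of the higher and 86 of the lower genes. In 191 of the 192, every MODEL2 library lay on one side of every MODEL1 library, the exception being Gm16551; such separation was seen in 706 of all 2639 tested genes (26.8%). The median log2 fold change over all tested genes was 0.01, with 1332 genes above and 1307 below 0. Libraries of different models correlated less (Pearson's r of log2 CPM across tested genes 0.837 to 0.886) than libraries within MODEL1 (0.895 to 0.923) or within MODEL2 (0.915 to 0.926), given as a description across genes, which are not independent replicates. Age differs between the models, and with an age term 66 genes were higher and 35 lower. All MODEL1 mice had the same age and every MODEL2 mouse was older, so the age slope comes from CTRL and MODEL2 alone. A call kept or lost with an age term therefore cannot tell age and model apart. Without the 3 rRNA-rich libraries fewer genes were called in either direction, with replicate 2 as the only MODEL1 library.

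**Figure D1:**
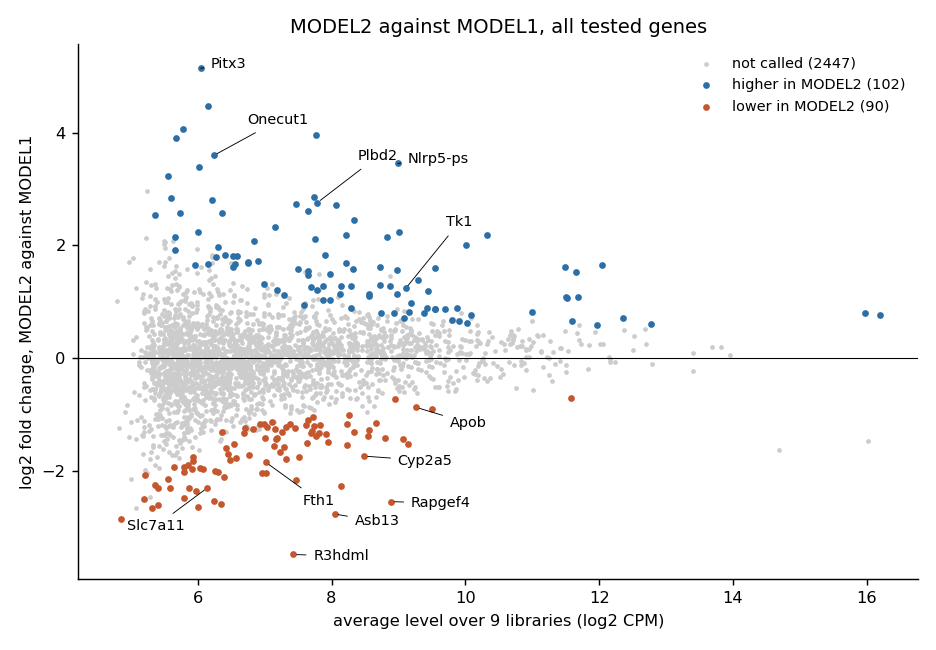
The log2 fold change of MODEL2 against MODEL1 (vertical axis) is plotted against the average log2 CPM over 9 libraries (horizontal axis) for each of the 2639 tested genes, with 102 genes higher in MODEL2 in blue and 90 lower in orange. The largest rise is Pitx3 at 5.15 and the largest fall R3hdml at -3.49.

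CTRL served as the background for these differences. Among the 90 genes lower in MODEL2, the MODEL2 mean lay between the CTRL mean and the MODEL1 mean for 66 (73.3%), and among the 102 higher genes for 61 (59.8%), against 44.7% of all tested genes. The reverse arrangement, MODEL1 between CTRL and MODEL2, was found for 3 of the lower genes and 6 of the higher genes, against 31.1% of all tested genes. CTRL lay between the models for 21 of the lower genes (23.3%) and 35 of the higher genes (34.3%), against 24.3% of all tested genes. A gene called for a wide gap between the models is by that choice less likely to have MODEL1 between the other groups. A gene can also pass the filter on low counts through CTRL alone. The comparison with all tested genes is therefore a description. These positions use CTRL only as a level; no call against CTRL was made.

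The called NRF2 targets were lower in the T80K livers than in the G31A livers. Of 48 listed NRF2 targets 18 were tested. Of these 4 fell (22.2%), none rose, and 17 of the 18 had a fold change below 0 (median log2 -1.12). Over all 2639 tested genes 3.41% fell, 3.87% rose and 1307 had a fold change below 0, which is the background for this and each later list. A listed gene was tested only if it passed the filter on low counts, for which a high level in 1 group suffices, so counts and medians over tested genes describe those genes and not the whole list. Among the genes of glutathione and thioredoxin metabolism, 1 of 8 tested fell and the median was -0.75; among those of conjugation, export and carbonyl reduction, 3 of 10 tested fell and the median was -1.16. Summed over all 16 listed glutathione and thioredoxin genes, the level was 2114, 2264 and 2134 CPM in MODEL1, 1376, 1570 and 1356 in MODEL2 and 276 to 340 in CTRL. Over the 32 conjugation and export genes it was 1683, 2913 and 1877 CPM in MODEL1, 1033, 1038 and 757 in MODEL2 and 278 to 363 in CTRL. On both sums MODEL2 stood below MODEL1 and above CTRL without overlap. In the models most of the first sum was Gss, which was not called. Gss held 1155 of the 1899 counts in MODEL1 and 730 of the 1133 in MODEL2.

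Slc7a11 encodes the cystine importer that supplies cysteine for glutathione. Its level was 138, 119 and 141 CPM in MODEL1, 35.7, 28.2 and 15.1 in MODEL2 and 0, 27.1 and 7.81 in CTRL. All 3 MODEL2 libraries were low, within or just above the range of CTRL, and far from MODEL1; Slc7a11 fell by 2.31 ± 0.53 on the log2 scale (± SE, adjusted p = 0.0104), a 4.95-fold lower level. Abcc4, an exporter of organic anions, stood at 180, 301 and 158 CPM in MODEL1 and 53.6, 44.3 and 94.7 in MODEL2, with at most 3.91 in CTRL. It fell by 1.71 ± 0.40 (adjusted p = 0.0104), and its libraries kept the order CTRL, MODEL2, MODEL1 without overlap.

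The glutathione transferases Gstm3 and Gstm4, which attach glutathione to reactive compounds, moved the same way. Gstm3 was at 95.4, 226 and 146 CPM in MODEL1 and 78.6, 36.2 and 37.9 in MODEL2, and fell by 1.59 ± 0.46 (adjusted p = 0.0387). Gstm4 was at 304, 253 and 220 CPM in MODEL1 and 100, 149 and 75.7 in MODEL2, and fell by 1.26 ± 0.35 (adjusted p = 0.0347). In CTRL Gstm3 did not exceed 11.3 CPM and Gstm4 did not exceed 7.81, below every library of either model. Gstm genes are near-identical copies of each other, and how the counting split their reads is not given, so the attribution to a single member is uncertain. The Slc7a11 call was lost without MODEL2 replicate 3 (adjusted p = 0.0656), and the others without 3 to 5 of the libraries: Abcc4 without MODEL1 replicate 2 or MODEL2 replicate 1 or 2 (0.0574 to 0.104), Gstm3 without MODEL1 replicate 2 or 3 or MODEL2 replicate 2 or 3 (0.100 to 0.247), and Gstm4 without any MODEL1 library or MODEL2 replicate 1 or 3 (0.0651 to 0.171). With an age term only Abcc4 of the 4 passed (0.0246, against 0.266 for Slc7a11, 0.714 for Gstm3 and 0.288 for Gstm4). Without the rRNA-rich libraries, MODEL1 was replicate 2 alone. The log2 fold changes were then -2.14 for Abcc4, -2.07 for Slc7a11, -2.05 for Gstm3 and -1.14 for Gstm4.

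The other tested NRF2 targets did not pass the test. Gsr, which regenerates reduced glutathione, stood at a log2 fold change of -2.15 ± 0.74 (adjusted p = 0.0861), and Srxn1, which repairs oxidized peroxiredoxins, -1.66 ± 0.55 (0.0731). Gclc, the catalytic subunit of the rate-limiting step of glutathione synthesis, was at -0.45 ± 0.27 (0.375), Gss (exon partner Acss2) at -0.50 ± 0.22 (0.186) and Gstm1 at -0.96 ± 0.34 (0.0988). Over the 18 tested targets the MODEL2 libraries were all below the MODEL1 libraries in 11, the 4 called genes included, where 26.8% of all tested genes separate in either direction. The libraries overlapped in the other 7, Txnrd1, Sqstm1, Gsta3, Mgst1, Abcc2, Aldh1a1 and Prdx6. Prdx6, a peroxidase, was the exception to the direction, with 20 counts in MODEL1 and 37 in MODEL2 and a log2 fold change of 0.99 ± 0.57 (0.349). Nadk, which makes NADP and was named after its values were seen, was at 463, 218 and 149 CPM in MODEL1 and 96.5, 101 and 136 in MODEL2, with MODEL1 replicate 1 far above the rest, and fell by 1.31 ± 0.37 (adjusted p = 0.0378). Of the 11 listed NADPH-producing and pentose phosphate genes 3 were tested and none was called, with Tkt at -0.00 ± 0.49.

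The promoters of the 3 called NRF2 targets with the largest changes are shown because NRF2 acts through a short element, whose core TGACNNNGC was searched on both strands (RefSeq windows of 300 bases, 250 before to 50 after the start, build GRCm38.p6, printed in the direction of the gene, matches in capitals). A match occurs in 12.4% of all 32851 windows of this length. The windows are chr3:50443564-50443863 for Slc7a11, chr14:118706170-118706469 and chr14:118676882-118677181 for the 2 starts of Abcc4, and chr3:107969125-107969424 for Gstm3, all on the reverse strand.
Slc7a11: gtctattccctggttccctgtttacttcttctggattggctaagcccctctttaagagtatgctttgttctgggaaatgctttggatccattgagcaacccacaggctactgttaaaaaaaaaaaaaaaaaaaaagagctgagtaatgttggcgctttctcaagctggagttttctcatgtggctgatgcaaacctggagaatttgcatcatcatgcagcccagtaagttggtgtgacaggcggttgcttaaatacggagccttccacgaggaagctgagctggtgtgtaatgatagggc
Abcc4, first start: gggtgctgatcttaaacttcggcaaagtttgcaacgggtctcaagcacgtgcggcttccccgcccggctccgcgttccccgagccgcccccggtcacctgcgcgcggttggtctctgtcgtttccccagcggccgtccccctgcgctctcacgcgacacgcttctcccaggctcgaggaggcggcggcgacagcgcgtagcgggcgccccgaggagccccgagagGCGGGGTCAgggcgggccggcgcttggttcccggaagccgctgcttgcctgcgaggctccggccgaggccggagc
Abcc4, second start: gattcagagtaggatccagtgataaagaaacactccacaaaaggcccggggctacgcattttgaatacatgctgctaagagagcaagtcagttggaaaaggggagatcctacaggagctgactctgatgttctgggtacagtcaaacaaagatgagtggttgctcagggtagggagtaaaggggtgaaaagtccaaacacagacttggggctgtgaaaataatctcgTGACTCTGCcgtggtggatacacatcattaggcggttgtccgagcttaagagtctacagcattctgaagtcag
Gstm3: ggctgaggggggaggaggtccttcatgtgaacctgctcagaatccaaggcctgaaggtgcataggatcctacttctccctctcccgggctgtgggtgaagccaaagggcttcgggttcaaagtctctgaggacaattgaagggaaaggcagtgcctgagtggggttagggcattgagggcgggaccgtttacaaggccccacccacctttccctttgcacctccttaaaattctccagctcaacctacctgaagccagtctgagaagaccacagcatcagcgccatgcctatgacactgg
Both Abcc4 windows hold 1 match, on the opposite strand to the gene in the first and on its own strand in the second. The windows of Slc7a11 and Gstm3 hold none, which says only that these letters are absent from these bases. A match is a description of the sequence and no evidence of binding.

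Of 13 listed genes of iron handling 5 were tested and 3 fell, namely both ferritin subunits and the iron exporter ferroportin (Slc40a1). Fth1, the heavy chain of the iron-storage protein ferritin, was at 120, 380 and 243 CPM in MODEL1, 78.6, 64.4 and 60.6 in MODEL2 and 15.05 to 31.7 in CTRL. The 3 MODEL2 values lay close together and below the widely spread MODEL1 values, and Fth1 fell by 1.85 ± 0.39 (adjusted p = 0.00567). Ftl1, the light chain (exon partner Gm10252), was at 173, 313 and 228 CPM in MODEL1 and 96.5, 109 and 98.5 in MODEL2, inside or near the 70.3 to 109 CPM of CTRL; it fell by 1.23 ± 0.32 (adjusted p = 0.0218). Slc40a1 was at 308, 396 and 348 CPM in MODEL1 and 107, 181 and 174 in MODEL2, with 11.3 to 27.1 in CTRL, and fell by 1.19 ± 0.29 (adjusted p = 0.0159).

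Hamp, the hormone that triggers the breakdown of ferroportin, and Trf, the plasma iron carrier, were not called, at 1.78 ± 0.80 (0.208) and 0.39 ± 0.29 (0.506). The macrophage scavenger receptor Cd163, which takes up haemoglobin and was named after its values were seen, was at 180, 174 and 123 CPM in MODEL1, 50.02, 68.4 and 45.4 in MODEL2 and 15.6 to 27.1 in CTRL, and fell by 1.53 ± 0.37 (adjusted p = 0.0146). The Fth1 call was lost without MODEL1 replicate 2 (0.0634), that of Ftl1 without MODEL1 replicate 2 or 3 or any MODEL2 library (0.0546 to 0.123), and that of Slc40a1 without MODEL1 replicate 2 or 3 or MODEL2 replicate 1 or 3 (0.0512 to 0.134). With an age term none of the 3 passed (0.0936 to 0.157). Without the rRNA-rich libraries, MODEL1 was replicate 2 alone, which held the highest MODEL1 level of all 3 genes. The log2 fold changes were then -2.39 for Fth1, -1.54 for Ftl1 and -1.28 for Slc40a1.

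**Figure D2:**
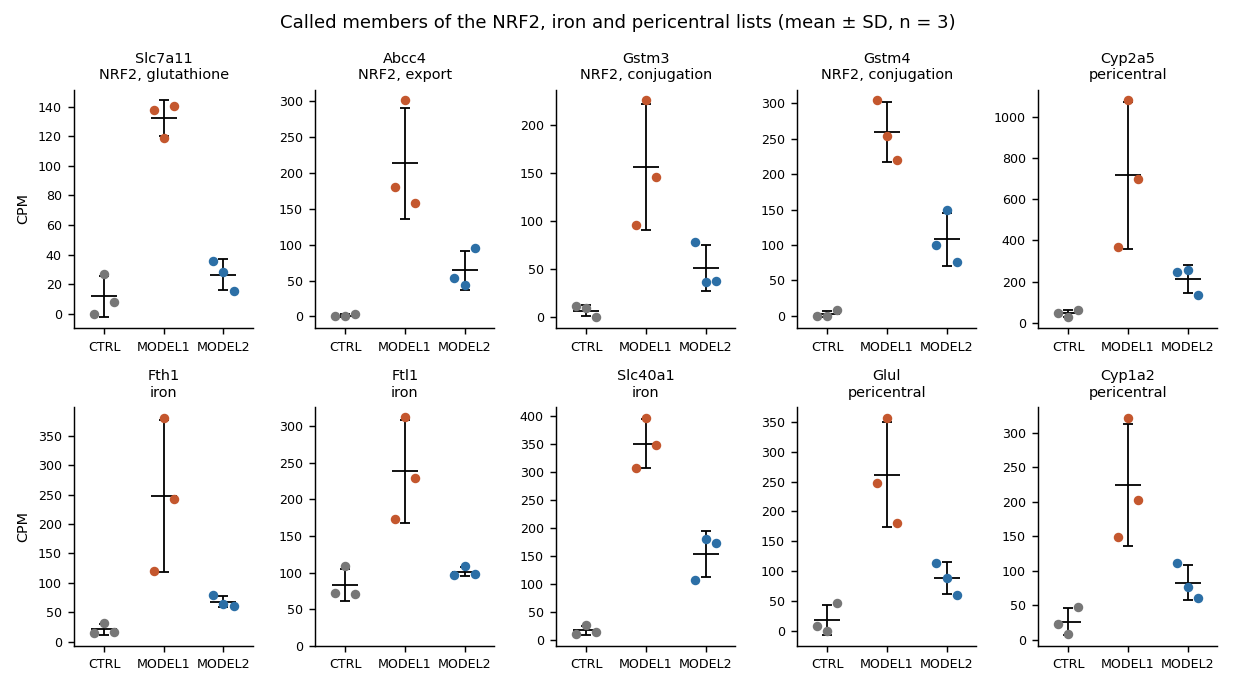
Each panel plots the CPM (linear axis) of 1 called gene of the NRF2, iron or pericentral lists in the 3 CTRL (grey), 3 MODEL1 (orange) and 3 MODEL2 (blue) libraries, with the mean and SD. In all 10 panels the 3 blue points lie below the 3 orange points, as for Cyp2a5, where MODEL2 spans 136 to 258 CPM and MODEL1 368 to 1081.

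Both models carried the same CTNNB1 T41A, and some markers of the hepatocytes around the central vein, where beta-catenin is active, nevertheless differed. Of 22 listed pericentral genes 11 were tested, 3 fell and none rose, with a median log2 fold change of -0.57. Aldh1a1, which was tested and not called, is on both this list and the NRF2 list of conjugation and export. Summed over the list, MODEL1 stood at 1294, 3044 and 1897 CPM, MODEL2 at 1115, 1006 and 788 and CTRL at 461 to 625. Cyp2a5, a P450 enzyme that oxidizes coumarin, was at 368, 1081 and 700 CPM in MODEL1, 247, 258 and 136 in MODEL2 and 27.1 to 62.5 in CTRL, and fell by 1.74 ± 0.34 (adjusted p = 0.00241). Its call held without any single library and with an age term (0.0437), but its reads can be shared with near-identical Cyp2a genes. Without the rRNA-rich libraries the log2 fold change of Cyp2a5 was -2.25, with MODEL1 replicate 2, its highest library, alone for MODEL1.

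Glul, which encodes glutamine synthetase (exon partner Teddm2), was at 247, 356 and 182 CPM in MODEL1, 114, 88.5 and 60.6 in MODEL2 and 0 to 46.9 in CTRL. The model ranges do not overlap, and Glul fell by 1.56 ± 0.45 (adjusted p = 0.0387). Cyp1a2, which metabolizes caffeine, was at 148, 321 and 202 CPM in MODEL1 and 111, 76.5 and 60.6 in MODEL2, with 9.04 to 46.9 in CTRL, and fell by 1.42 ± 0.39 (adjusted p = 0.0320); it was also the only called gene among 5 tested P450 genes of foreign compounds. Both calls were lost without any 1 of 5 libraries, MODEL1 replicate 2 and the 3 MODEL2 libraries for each, with MODEL1 replicate 1 for Glul (0.0690 to 0.205) and MODEL1 replicate 3 for Cyp1a2 (0.0519 to 0.203). Neither passed with an age term (0.0630 and 0.0904) or without the rRNA-rich libraries (0.0781 and 0.0530).

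The secreted Wnt inhibitor Notum (exon partner Notumos), a direct beta-catenin target, held 1 count in CTRL, 167 in MODEL1 and 83 in MODEL2, and its log2 fold change was -0.91 ± 0.42 (adjusted p = 0.213). No gene of the Wnt feedback list was called among 3 of 15 tested. Ccnd1 (exon partner LTO1), which drives entry into the cell cycle, stood at 0.02 ± 0.33. Members too thinly counted to be tested went both ways. Axin2 (17 counts in MODEL1 and 1 in MODEL2) and Lgr5 (5 and 0) were lower in MODEL2. Nkd1 (5 and 9) and Sp5 (0 and 5) were higher. Of the 11 tested pericentral genes 9 were below 0 and 2 above, namely Avpr1a, a vasopressin receptor with all MODEL2 libraries above MODEL1 (0.81 ± 0.53, 0.422), and Rgn (0.10 ± 0.54, 0.95). Uncalled genes below 0 included Cyp2e1 at -0.55 ± 0.34 (0.392) and Cyp7a1, the rate-limiting enzyme of bile acid synthesis, at -0.57 ± 0.59 (0.661).

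Of 18 listed genes of periportal hepatocytes 5 were tested, all 5 had fold changes above 0 (median log2 1.53), and 1, Cps1, rose. The list sum was 187, 269 and 316 CPM in MODEL1, 543, 596 and 428 in MODEL2 and 805 to 1245 in CTRL, so MODEL2 lay between MODEL1 and CTRL without overlap. Untested members went both ways, as in Asl, which cleaves argininosuccinate (7 counts in MODEL1 and 19 in MODEL2), and Cyp2f2 (25 and 15). Cps1, which brings ammonia into the urea cycle, was at 0, 31.7 and 17.6 CPM in MODEL1, 67.9, 72.4 and 53.0 in MODEL2 and 81.4 to 152 in CTRL. It rose by 1.97 ± 0.60 (adjusted p = 0.0477), and no library of one model reached the range of the other. Uncalled members were Pck1, the gluconeogenic enzyme, at 1.83 ± 0.79 (0.189), Pigr, which carries immunoglobulin A into bile, at 1.53 ± 0.55 (0.101), and Gls2, the liver glutaminase, at 0.83 ± 0.39 (0.230). Among 9 tested genes of the urea cycle and amino acid breakdown Cps1 was the only call, and the median was 0.36. The Cps1 call was lost without MODEL1 replicate 1 or 3 or any MODEL2 library (0.0773 to 0.127), with an age term (0.159), without the rRNA-rich libraries (0.442) and with the size factors of DESeq2 (0.0564).

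A pair of symbols on the strand opposite periportal enzymes rose strongly; they are among the 10 largest rises by the naming rule. Plbd2 encodes a lysosomal phospholipase-like protein and shares exon bases with Sds, the serine dehydratase of periportal hepatocytes. It was at 46.0, 23.7 and 29.3 CPM in MODEL1, 186, 330 and 167 in MODEL2 and 242 to 407 in CTRL, and rose by 2.76 ± 0.38 (adjusted p = 5.54e-05), a call that held without any single library. Sds itself held 28, 23 and 10 counts in CTRL, MODEL1 and MODEL2. Spryd4, opposite Gls2, was at 0, 11.9 and 5.86 CPM in MODEL1 and 104, 36.2 and 53.0 in MODEL2, with 52.7 to 154 in CTRL; it rose by 3.40 ± 0.74 (adjusted p = 0.00648), a call lost without MODEL2 replicate 1 (0.0533) and without the rRNA-rich libraries (0.177). Which strand the reads of these pairs came from was not tested.

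For the counts of called hepatocyte identity genes given next, the share over all tested genes was 7.28%, with 3.87% higher and 3.41% lower. Of 7 tested liver transcription factors 1 rose: Onecut1 (HNF6) was at 7.07, 11.9 and 0 CPM in MODEL1, 125, 12.1 and 87.1 in MODEL2 and 74.2 to 150 in CTRL. The lowest MODEL2 value lay just above the highest MODEL1 value, and Onecut1 rose by 3.60 ± 0.79 (adjusted p = 0.00719; 0.0550 without MODEL2 replicate 1, and 0.198 without the rRNA-rich libraries). Onecut1 passed the filter on low counts only through its CTRL level and was not tested when only the 6 model libraries were fitted. Cebpa (exon partner Gm45091), at 0.21 ± 0.27, was not called. Slc27a5, which joins bile acids to coenzyme A before conjugation and was the only call among 6 tested bile acid genes, was at 35.3, 27.7 and 20.5 CPM in MODEL1, 67.9, 92.6 and 90.9 in MODEL2 and 293 to 485 in CTRL. It rose by 1.59 ± 0.39 (adjusted p = 0.0146; 0.0302 with an age term). Its opposite-strand neighbour Trim28 lies 922 bp from it. The call was lost without MODEL1 replicate 2 or 3 or MODEL2 replicate 2 or 3 (0.0528 to 0.0871) and without the rRNA-rich libraries (0.172).

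Plasma protein genes were tested in the greatest number, 23 of 33, and 1 rose and 1 fell, with a median of 0.14. Apob, the structural protein of lipoproteins, was at 735, 922 and 790 CPM in MODEL1, 550, 411 and 371 in MODEL2 and 372 to 479 in CTRL. MODEL2 lay at or near CTRL and below all of MODEL1, and Apob fell by 0.87 ± 0.22 (adjusted p = 0.0155). Serpina1b, a copy of alpha-1-antitrypsin with near-identical neighbours, was at 0, 7.92 and 8.78 CPM in MODEL1, at or below the level of 3 counts. In MODEL2 it was at 50.02, 28.2 and 26.5 CPM, and it rose by 2.54 ± 0.76 (adjusted p = 0.0434). Serpina1b, too, passed the filter only through its CTRL level and was not tested with the 6 model libraries alone. Alb and Apoa1 were not called, at 0.14 ± 0.24 and -0.01 ± 0.22. The Serpina1b call was lost on leaving out any 1 of the 9 libraries (0.0549 to 0.221), and that of Apob without MODEL1 replicate 2 or 3 or MODEL2 replicate 2 or 3 (0.0562 to 0.102). With an age term and without the rRNA-rich libraries neither passed (0.0718 and 0.322 for Serpina1b, 0.0977 and 0.107 for Apob).

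In mouse liver some genes follow the sex-specific rhythm of growth hormone, and all of these mice were male. Of 16 listed male-biased genes 2 were tested, both above 0, and Mup3, a major urinary protein with near-identical copies, rose: it was at 17.7, 11.9 and 41.0 CPM in MODEL1, 92.9, 52.3 and 83.3 in MODEL2 and 109 to 162 in CTRL. The rise was 1.63 ± 0.47 (adjusted p = 0.0387). Egfr, the other male-biased gene tested, was at 1.69 ± 0.53 (0.0537) with overlapping libraries.

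Of 15 listed female-biased genes 2 were tested, both below 0. Cyp2a4, a steroid hydroxylase nearly identical to Cyp2a5 (exon partner Gm42375), was at 110, 214 and 176 CPM in MODEL1, 67.9, 64.4 and 18.9 in MODEL2 and at most 3.76 in CTRL, and fell by 1.71 ± 0.45 (adjusted p = 0.0242). Cyp2b9 held 64 counts in MODEL1, 15 in MODEL2 and 0 in CTRL and was not called (-1.96 ± 0.65, 0.0771). Summed over the lists, male-biased genes stood at 84.8 to 149 CPM in MODEL1 and 241 to 361 in MODEL2, and female-biased genes at 180 to 372 and 26.5 to 113. The Mup3 call was lost without MODEL1 replicate 1 or 2 or MODEL2 replicate 1 or 3 (0.106 to 0.169), and that of Cyp2a4 without MODEL1 replicate 2 or 3 or MODEL2 replicate 3 (0.0924 to 0.140). Neither passed with an age term (0.116 and 0.848) or without the rRNA-rich libraries (0.0797 and 0.0943).

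Pitx3, which encodes a homeobox factor of lens and midbrain, showed the largest rise of all and shares 10 exon bases with Elovl3, a fatty acid elongase that is male-biased in liver. It was at 0, 7.92 and 2.93 CPM in MODEL1, 100, 201 and 114 in MODEL2 and 9.04 to 31.2 in CTRL. MODEL2 was thus above both other groups, and MODEL1 held 3 counts in all against 108, a scaled count ratio of 39.9 (exact 95% counting interval 13.3 to 196). The fitted rise was 5.15 ± 0.69 (adjusted p = 5.04e-05) and passed in every alternative that tested it. Elovl3 itself held 0, 0 and 2 counts in CTRL, MODEL1 and MODEL2.

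**Figure D3:**
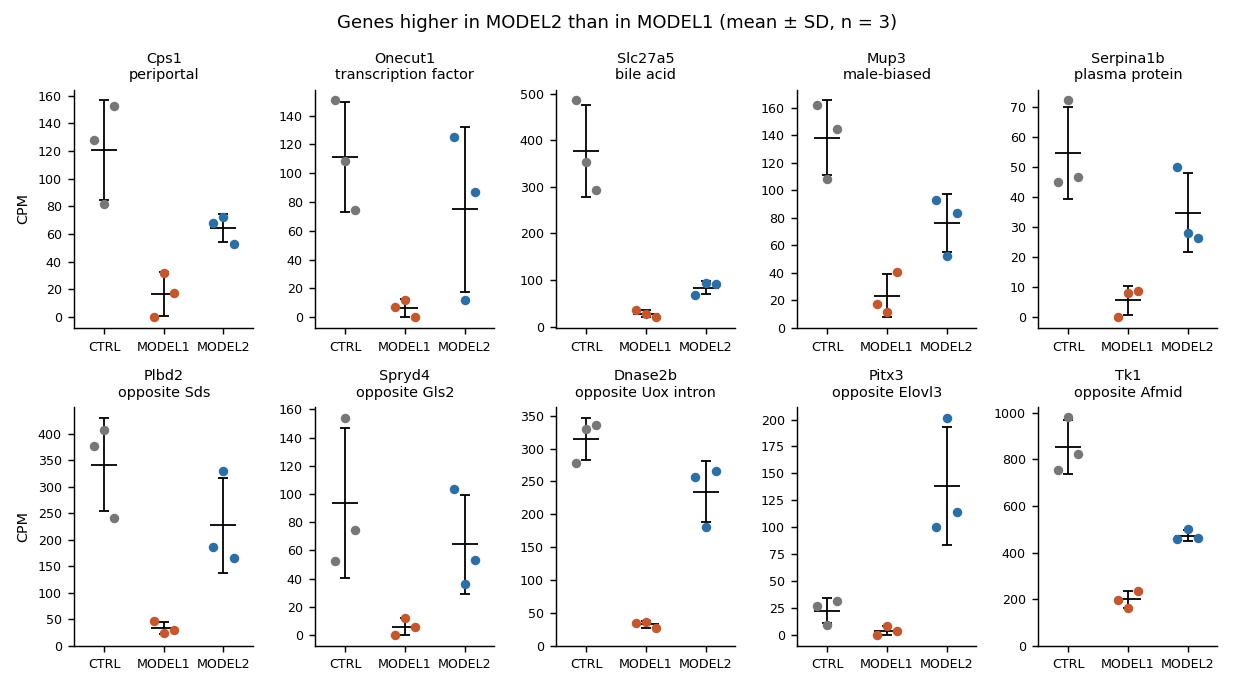
Each panel plots the CPM (linear axis) of 1 gene that rose in MODEL2 in the 3 CTRL (grey), 3 MODEL1 (orange) and 3 MODEL2 (blue) libraries, with the mean and SD; the lower row holds symbols with a gene on the opposite strand. In 9 of the 10 panels the MODEL2 mean lies between those of MODEL1 and CTRL, and in the panel of Pitx3 it lies above both. Onecut1 and Serpina1b passed the filter on low counts only through CTRL.

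Among cell cycle genes 6 of 31 were tested and 1 rose. Tk1, thymidine kinase, shares 83 exon bases with Afmid, an enzyme of tryptophan breakdown in hepatocytes. It was at 198, 162 and 237 CPM in MODEL1, 457, 499 and 462 in MODEL2 and 756 to 981 in CTRL, so the level was highest in CTRL. It rose by 1.24 ± 0.22 (adjusted p = 0.00137), a call that held without any single library and with an age term (0.0100). Without the rRNA-rich libraries, with 1 MODEL1 library left, the log2 fold change of Tk1 was 1.62. Afmid had a log2 fold change of 1.22 ± 0.58 (0.233). The cyclins Ccna2 and Ccne2 (exon partner Ints8) and the mitotic kinase Aurka were not called, at 0.22 ± 0.26, 0.15 ± 0.24 and 0.41 ± 0.31. Exosc9, an exosome subunit on the strand opposite Ccna2 and named after its values were seen, fell by 1.49 ± 0.29 (adjusted p = 0.00241).

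In all, 13 of the 26 lists held a called gene. Counted once each, 131 of 469 listed genes were tested and 18 were called, 6 higher and 12 lower, with a median log2 of 0.02. That is 13.7%, against 7.28% of all tested genes. The lists were chosen with earlier results of these data known, which can raise this share, so it is a description only. No call was made in the lists of the pentose phosphate pathway, proteasome, Wnt feedback, acute phase, fatty acid oxidation, fatty acid and cholesterol synthesis, glycolysis, oncofetal genes, the ATF4 response, heat shock, interferon response and the circadian clock. In the list of p53 targets no gene was tested. Afp, the fetal albumin homologue used as a liver cancer marker, stood at 0.47 ± 0.32 (0.446), and Fasn, the fatty acid synthase, at 0.10 ± 0.63 (0.959).

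**Figure D4:**
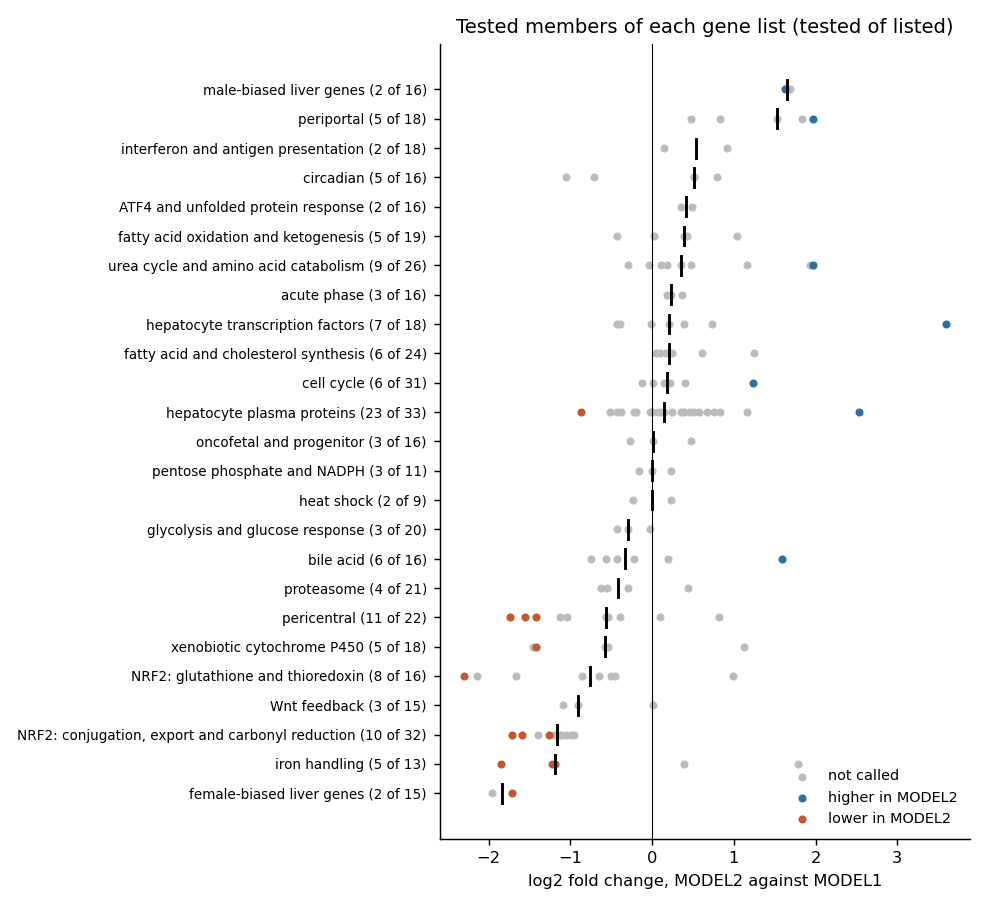
Each point is a tested gene of the list named at the left (with the numbers tested and listed), placed at its log2 fold change of MODEL2 against MODEL1; blue and orange mark called genes and the black bar the median of the list. Medians run from -1.83 for the female-biased genes to 1.66 for the male-biased genes, each with 2 tested genes, and 10 of 10 tested conjugation and export genes lie below 0.

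Among the other large rises, 3 held at least 94 counts in MODEL2. In MODEL1, Nlrp5-ps held 37 counts, Dnase2b 28 and Efna3 15, of which 12 were in replicate 3. Nlrp5-ps, a pseudogene of an oocyte protein, was at 28.3, 31.7 and 61.5 CPM in MODEL1, 532, 386 and 462 in MODEL2 and 800 to 1086 in CTRL; it rose by 3.46 ± 0.30 (adjusted p = 3.07e-07) and had the smallest p of the named genes. Dnase2b, a DNase known from the lens that lies over an intron of the urate oxidase gene Uox on the other strand, was at 35.3, 35.6 and 26.3 CPM in MODEL1, 257, 181 and 265 in MODEL2 and 278 to 336 in CTRL, a rise of 2.85 ± 0.33 (adjusted p = 9.70e-06). Efna3, a membrane ligand of Eph receptors (exon partner Gm15998), was at 3.53, 7.92 and 35.1 CPM in MODEL1, 121, 145 and 90.9 in MODEL2 and 27.1 to 70.3 in CTRL, a rise of 2.81 ± 0.57 (adjusted p = 0.00355). For Nlrp5-ps and Dnase2b the MODEL2 level lay on the CTRL side of MODEL1, and for Efna3 it exceeded every CTRL library. These 3 calls held without any single library and with an age term (at most 0.0296). Without the rRNA-rich libraries, MODEL1 was replicate 2 alone. The log2 fold changes were then 3.92 for Nlrp5-ps, 2.78 for Dnase2b and 3.91 for Efna3.

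For H2-M10.6, a class I histocompatibility gene, MODEL1 held 3 counts in all and MODEL2 51, a scaled count ratio of 18.8 (6.09 to 94.3); the fitted rise was 4.07 ± 0.72 (adjusted p = 0.00105; 0.0590 without the rRNA-rich libraries). Gpr171, a G protein-coupled receptor inside an intron of Med12l on the other strand, had 2 counts in MODEL1 and 20 in MODEL2 (ratio 11.1, 2.69 to 97.7), with a fitted rise of 3.23 ± 0.93 (adjusted p = 0.0387). Mfhas1, a leucine-rich repeat protein (exon partner Gm16793), held 3 and 22 counts, a ratio of 8.12 (2.44 to 42.4), with a fitted rise of 2.85 ± 0.86 (adjusted p = 0.0462). In CTRL these 3 genes held 49, 64 and 63 counts, so that MODEL1 was the low group. Gpr171 and Mfhas1 passed the filter only through CTRL and were not tested with the 6 model libraries alone. Without the rRNA-rich libraries neither Gpr171 nor Mfhas1 passed (0.144 and 0.436); Gpr171 was lost without CTRL replicate 1, MODEL1 replicate 2 or 3 or any MODEL2 library (0.0545 to 0.157), Mfhas1 without CTRL replicate 1 or 2 or any model library (0.0522 to 0.269) and with an age term (0.133), and both under DESeq2 (0.0583 and 0.0596).

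Of the 10 largest falls, 3 held in every leave-one-out fit and with an age term. Rapgef4 encodes EPAC2, which couples cyclic AMP to the GTPase RAP1 (exon partner Rapgef4os2). It was at 983, 926 and 870 CPM in MODEL1, 150, 157 and 167 in MODEL2 and 109 to 354 in CTRL, and fell by 2.55 ± 0.31 (adjusted p = 1.33e-05), so that MODEL2 lay within the range of CTRL. Asb13, a substrate receptor of a ubiquitin ligase with no gene overlapping it on the other strand, was at 424, 744 and 653 CPM in MODEL1, 71.5, 96.6 and 98.5 in MODEL2 and 0 to 18.1 in CTRL, and fell by 2.77 ± 0.34 (adjusted p = 2.12e-05). R3hdml, which lies over an intron of Hnf4aos, was at 209, 348 and 190 CPM in MODEL1, 10.7, 48.3 and 7.57 in MODEL2 and 132, 18.1 and 406 in CTRL. It fell by 3.49 ± 0.71 (adjusted p = 0.00410), and the CTRL libraries spread over both models.

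The other 6 large falls reported here were lost in at least 1 of these fits. Hjurp, the chaperone that loads the centromeric histone CENP-A (Trpm8 lies 28 bp away on the other strand), was at 177, 127 and 123 CPM in MODEL1 and 28.6, 40.2 and 3.79 in MODEL2, and fell by 2.54 ± 0.62 (adjusted p = 0.0146). Elmo1, which activates RAC during engulfment of dying cells (exon partner Gm32036), was at 141, 83.1 and 99.5 CPM in MODEL1 and 21.4, 32.2 and 3.79 in MODEL2, and fell by 2.48 ± 0.58 (adjusted p = 0.0113). Mkln1, muskelin (exon partner Mkln1os), was at 134, 135 and 70.3 CPM in MODEL1 and 7.15, 28.2 and 30.3 in MODEL2, and fell by 2.35 ± 0.62 (adjusted p = 0.0235; 0.0280 with an age term). In these 3 genes no MODEL2 library reached the lowest MODEL1 library. The remaining 3 held few counts. Gpr21, an orphan receptor over an intron of Strbp (43 counts in MODEL1, 5 in MODEL2, none in CTRL), fell by 2.87 (adjusted p = 0.0246). Pmch, the precursor of melanin-concentrating hormone opposite Parpbp (64, 9 and 1 counts), fell by 2.67 (0.0271). The ribonuclease Rnase4 (62, 9 and 8 counts) fell by 2.61 (0.0387). Without the rRNA-rich libraries none of the 6 passed (0.0600 to 0.365). On leaving out 1 library Hjurp was lost without MODEL1 replicate 1 or MODEL2 replicate 3 (0.0523 and 0.0753), Elmo1 without the same 2 libraries (0.0611 to 0.0663), Mkln1 without MODEL1 replicate 1 or 2 or any MODEL2 library (0.0501 to 0.127), Pmch without MODEL1 replicate 2 or 3 or MODEL2 replicate 2 or 3 (0.100 to 0.157), and Gpr21 and Rnase4 without any 1 of the 6 model libraries (0.0523 to 0.187); with an age term Elmo1, Pmch and Gpr21 did not pass (0.139 to 0.651).

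Hepatocyte markers overlapped between the models: the summed level of 8 genes, all with counts, was 1145 to 1876 CPM in MODEL1, 1493 to 2215 in MODEL2 and 2844 to 3340 in CTRL. Several lists of other cell types had a lower sum in every MODEL2 library than in every MODEL1 library, and others overlapped. Over the whole table, too, fewer symbols had counts in the MODEL2 libraries (7458 to 7901) than in the MODEL1 libraries (8368 to 8979). The part of this difference in the marker sums was not tested. The 12 Kupffer cell and macrophage markers summed to 96.6 to 150 CPM in MODEL1, 42.9 to 60.6 in MODEL2 and 41.4 to 90.4 in CTRL; they held 112 counts in MODEL1 and 39 in MODEL2, none was tested, Adgre1 (F4/80) was at 0 in all 9 libraries and Clec4f held 9 counts in MODEL1 and 0 in MODEL2. The 5 dendritic cell markers summed to 277 to 316 CPM in MODEL1, 85.8 to 109 in MODEL2 and 71.5 to 118 in CTRL, most of it Clec9a, which fell by 1.79 ± 0.31 (adjusted p = 0.00101) and lies 9 bp from Clec1a on the other strand. The 6 erythroid markers summed to 332 to 410 CPM and 136 to 278, all but 2 of the 323 counts in MODEL1 and all 173 in MODEL2 from Alas2 (exon partner Apex2), with the 4 globin genes at 0 in all 9 libraries. The markers of stellate cells (19.8 to 26.3 and 4.02 to 7.57 CPM), cholangiocytes (10.6 to 11.9 and 0 to 4.02, with Epcam, Krt7 and Spp1 at 0 in all 9 libraries) and T and NK cells (5.86 to 10.6 and 0) were near the level of 3 counts. The lists that overlapped were endothelium, at 219 to 321 CPM in MODEL1 and 254 to 443 in MODEL2, most of it Eng (exon partner Fpgs; log2 0.71 ± 0.28, 0.149), and B and plasma cells, neutrophils and exocrine pancreas, each with at most 4 counts in a model.

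The lower marker sums went together with the NRF2, iron and pericentral genes, and their part in those falls was not tested. In bulk liver, fewer cells of a type and less RNA per cell cannot be told apart. The nuclear RNA Malat1 (exon partner Gm37376) fell by 1.51 ± 0.44 (adjusted p = 0.0387), and Rn45s stood at -1.48 ± 0.47 (0.0614) with overlapping libraries; their part in the other differences was not tested.

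The number of calls moved with the libraries used. Leaving out 1 model library gave 50 to 84 higher and 35 to 58 lower genes, with 53 and 35 without MODEL1 replicate 2, 65 and 46 without MODEL1 replicate 3, 50 and 35 without MODEL2 replicate 1, 66 and 50 without MODEL2 replicate 2, 61 and 37 without MODEL2 replicate 3, and 58 lower genes without MODEL1 replicate 1. Of the 37 genes named by rule, 11 passed in every leave-one-out fit: Cyp2a5, Tk1, Pitx3, H2-M10.6, Nlrp5-ps, Dnase2b, Efna3, Plbd2, R3hdml, Asb13 and Rapgef4. Of the called genes that could be placed on the genome, an exon partner on the other strand was found for 65.7% of the higher and 48.3% of the lower genes (exact 95% intervals 55.4 to 74.9% and 37.6 to 59.2%), against 61.2% of all tested genes. Without the filter, 7 of the 37 lost their call (Gstm3, Gstm4, Ftl1, Slc40a1, Serpina1b, Apob and Gpr21, 0.0568 to 0.113), and with the size factors of DESeq2 3 did (Cps1, Serpina1b and Mfhas1, 0.0502 to 0.0564). Restricted to genes with no such partner, 31 were higher and 27 lower. There 14 of the 37 were not tested and 5 lost their call (Gstm3, Gstm4, Cyp1a2, Apob and Rnase4). With a replicate block 12 of the 37 lost their call, Gstm3, Gstm4, Glul and Cyp1a2 among them.

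**Figure D5:**
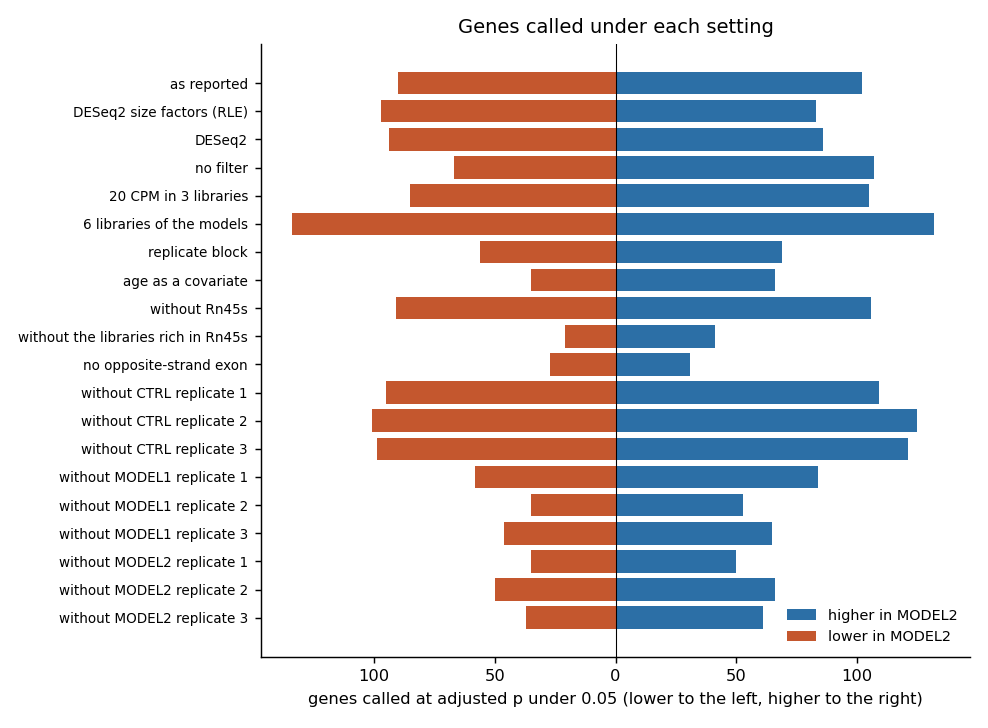
The bars give the number of genes called higher (blue, to the right) and lower (orange, to the left) in MODEL2 at an adjusted p under 0.05 in the reported fit and in 19 alternatives. The reported counts are 102 and 90, and the most calls come from fitting the 6 model libraries alone (132 and 134). The fewest come from leaving out the rRNA-rich libraries, with 1 MODEL1 library left, or from testing only genes without an exon partner. The latter gave 31 and 27, with fewer genes.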

How the data were processed

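The authors deposited 1 table of raw read counts per gene symbol for 9 mouse liver libraries; per the labels' protocols, Trizol was used to extract RNA and the library kit is not named. The submitters' processing notes list Trimmomatic 0.38, HISAT2 2.1.0, HTSeq 0.11.2 and mm10, without roles; annotation and strand setting are not given in the sources used here. The members and gene lists were chosen with earlier results of these data known.

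Counts were tested with edgeR 4.0.16 in R 4.3.3 (quasi-likelihood F test, 2-sided, TMM scaling, filterByExpr with a minimum count of 10, Benjamini-Hochberg adjustment over all 2639 genes tested, threshold 0.05). All 9 libraries were fitted with 1 coefficient per group, so the groups share 1 estimate of the spread. All p-values in parentheses are adjusted p-values of this test. The fit was tested on simulated counts. CPM are counts over the effective library size. Each library is a separate mouse by its label; p-values measure the spread between these libraries. Same-numbered libraries of the models did not deviate together (correlations 0.01, 0.01 and 0.00), so no block was used.

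Symbols were placed on GENCODE M21 (mm10): 23335 matched directly, 658 through a synonym, 81 matched several genes and 345 none. Opposite-strand exon overlap was counted there, and promoters are from RefSeq. The genes named are the injected genes, Keap1 and Cul3; from each list at most 4 called genes, those with the strongest change; and, over the whole table, 10 top rises and 10 top falls, restricted to called genes whose libraries separate, whose mean log2 CPM is 2 or more and whose symbol is not provisional. One gene that the rule names is not reported here. Count ratios have exact conditional binomial intervals. Alternatives were other scalings, DESeq2 1.42.0, other filters, other library sets, age, Rn45s, opposite-strand exons and a replicate block.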

Additional observations from a re-analysis of the deposited data

How the results depend on the processing

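The direction of each named gene was the same in every alternative that gave it a value. With the 6 model libraries alone, Onecut1, Serpina1b, Gpr171 and Mfhas1 did not pass the filter and had no value. The counts of 102 higher and 90 lower genes stayed within 1.5 times with the size factors of DESeq2 (83 and 97), under DESeq2 (86 and 94), without the filter (107 and 67), at 20 CPM in 3 libraries (105 and 85), with the 6 model libraries (132 and 134) and without Rn45s (106 and 91). They were 66 and 35 with an age term in the fit, 41 and 21 without the rRNA-rich libraries, and 31 and 27 among genes with no opposite-strand exon; the last 2 use fewer libraries or genes, and for age the cause was not tested. Leaving out 1 library gave 50 to 125 higher and 35 to 101 lower genes. A replicate block gave 69 and 56; the numbers in the labels do not pair the mice, and 1 of the 3 numbers had libraries that correlated best with each other. Depth limits the comparison: 3 counts correspond to 8.78 to 12.1 CPM in the models, and 2639 of 24419 symbols could be tested.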

Other observations

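Called genes sometimes lay side by side. Within 50 kb of each other there were 14 pairs of called genes, 12 of them with the same direction, against the same sign in 55.1% of 1326 tested pairs at that distance. These pairs were looked for after the values were seen. The tested pairs hold genes called or not, so their share is not a like comparison. Some of the 14 pairs share a gene or overlap on the same strand, so they are not independent. Gm16551, 1787 bp from Onecut1 on the same strand, was at 0, 0 and 5.86 CPM in MODEL1 and 132, 0 and 45.4 in MODEL2, so that MODEL2 replicate 2 was as low as MODEL1; its scaled count ratio was 27.1 (exact 95% counting interval 7.12 to 230), and in Onecut1 the same library was also the lowest of MODEL2, at 12.1 CPM. Mroh2a, 182 bp from Hjurp on the opposite strand, fell by 2.28, and Hjurp fell by 2.54. Teddm1b, 23073 bp from Glul, fell by 2.02, and the vomeronasal receptor gene Vmn1r184, 36550 bp from Cyp2a4, fell by 2.31. Rabgap1 (exon partner Strbp), which contains Gpr21 on the same strand, fell by 1.54. The extracellular matrix genes Ecm2 and Aspn lie 11654 bp apart; Ecm2 fell by 1.94 and Aspn (exon partner Cenpp) fell by 2.30. Timeless (exon partner Gm26847) and Apon, the latter an apolipoprotein gene, lie 1155 bp apart on the same strand and rose by 1.21 and 1.67, with Spryd4 within 42289 bp. The snoRNA Snora61 and its host Snhg12 rose by 2.74 and 2.11. Of 4 pairs of called genes that share exon bases on opposite strands, 2 went the same way, Il1rap rising by 1.08 with Gm20319 by 1.59, and Srsf4, which fell by 1.17, with Gm12992, which fell by 0.71. The other 2 went opposite ways: Abca3, a lipid transporter, fell by 1.21 and D330041H03Rik rose by 1.08, and Acsm3, a medium-chain acyl-CoA synthetase, fell by 1.34 and Eri2 rose by 1.07. Whether reads of one gene were counted in its neighbour was not tested.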
